A study of Mus musculus with 8 samples.

Results

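The complement genes C1qa, C1qb, C1qc, C1ra, C1s1, C3, C4b, Cfi and Serping1 were compared between Mfp2-/- and control neural retinas. They were taken by gene symbol, 9 of the 43472 symbols in the count tables, and the rule uses no measured value. They fall into initiators of the classical pathway (C1qa, C1qb, C1qc, C1ra and C1s1), the central components C3 and C4b, and the inhibitors Serping1 and Cfi. The 8 mice were 3 weeks old (postnatal day 21) and of the C57BL/6J strain. There were 4 Mfp2-/- mice, which lack multifunctional protein 2, an enzyme of peroxisomal β-oxidation, and 4 control mice, of which 3 were Mfp2+/+ and 1 (control replicate 2) was Mfp2+/-. The deletion was not confined to a retinal cell type. Both neural retinas of a mouse were pooled into 1 library, prepared with QuantSeq, a method that sequences transcripts from their 3′ end, so that the counts of a gene do not grow with its length.

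Complement is a cascade of proteins that tags cells, debris and synapses for uptake. In the classical pathway the recognition molecule C1q binds a surface and carries the proteases C1r and C1s. C1r activates C1s, which cleaves C4 and C2 to form a convertase that cleaves C3, and the fragments of C3 and C4 then stay on the surface as tags. C1 inhibitor, encoded by Serping1, blocks C1r and C1s, and factor I, encoded by Cfi, cleaves the deposited fragments. In nervous tissue, C1q is made mostly by microglia, and astrocytes and other glia are known sources of C3 and C4 in disease.

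Hsd17b4, the gene of multifunctional protein 2, had 1, 0, 1 and 0 counts in Mfp2-/- replicates 1 to 4, against 47, 20, 78 and 37 counts in control replicates 1 to 4. Depth was 1895485 to 2826553 counts in genes in the Mfp2-/- libraries and 2340974 to 3226187 in the control libraries. Mfp2-/- replicates 2 and 3 stood apart from the other libraries: on the first principal component (61.3% of the variance) they lay at -84.1 and -55.1, Mfp2-/- replicates 1 and 4 at -20.4 and -21.8, and the controls at 36.0 to 49.2. In these 2 libraries 10.8% and 15.7% of reads lay outside annotated genes, against 22.6% to 29.9% in the other 6. Results are therefore also given without them. Values are counts scaled to library size with TMM factors (CPM), and Mfp2-/- was tested against control by edgeR's quasi-likelihood method over the 12516 genes that passed its filter on low counts. A gene was called at a Benjamini-Hochberg adjusted p under 0.05 over these genes.

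Of the 9 complement genes, 7 passed the filter and all 7 were called higher in Mfp2-/- retinas, where 13.8% of all genes tested were called higher and 13.2% lower. The filter asked for a level near 10 counts at median depth in at least 4 libraries. C3, C4b and Cfi had under 10 counts in every control library and passed through the Mfp2-/- libraries alone, so that they had to differ. C1qc had 6 counts in control replicate 3 and also needed Mfp2-/- libraries to pass. The number called is therefore a description. The median log2 fold change of the 7 was 3.79, and that of all genes tested was -0.0039. Limma-voom and DESeq2 also called the 7 higher, where they called 13.4% and 14.1% of all genes higher. In 8 of the 9 genes (all except C1s1) every Mfp2-/- library lay above every control library, as did 15.1% of the genes tested, among which C1ra is not. Without Mfp2-/- replicates 2 and 3 the 7 genes were again called higher. C4b had the highest log2 fold change of all 12516 genes, Cfi ranked 7, C3 ranked 11 and Serping1 ranked 19, whereas C1qc, C1qa and C1qb ranked 43, 73 and 84. These are whole retinas, so more cells of a type and more RNA per cell cannot be told apart.

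**Figure D1:**
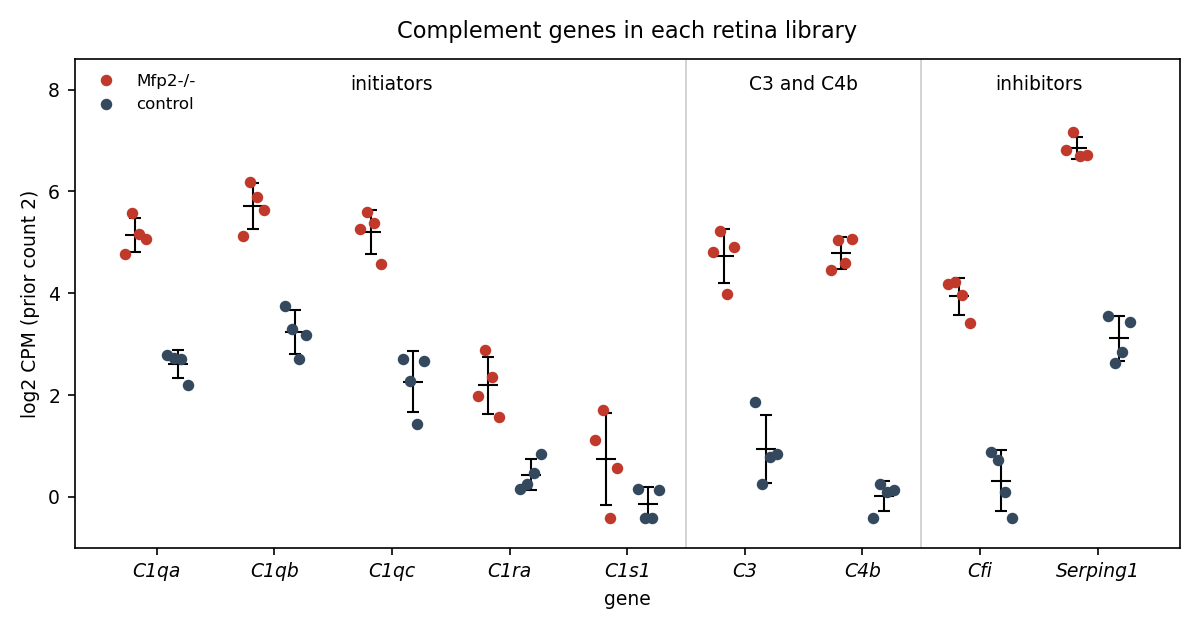
Level of each complement gene in each library, as log2 CPM with a prior count of 2 (vertical axis), for Mfp2-/- (red, left of each pair) and control (dark blue, right), 4 libraries each, with mean and SD in black. The red and blue points overlap for C1s1 and are separate for the other 8 genes, with the widest gap for C4b.

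The genes C1qa, C1qb and C1qc encode the A, B and C chains of C1q, which assemble with each other in equal numbers. They lie next to each other on chromosome 4 of the mouse genome GRCm38, all on the minus strand: C1qb from 136880129 to 136886187, C1qc from 136889804 to 136893065 and C1qa from 136895917 to 136898803. C1qa had 26.5, 47.3, 35.3 and 32.7 CPM in Mfp2-/- replicates 1 to 4, against 6.19, 5.88, 5.81 and 3.83 CPM in control replicates 1 to 4. The groups did not overlap, and the lowest Mfp2-/- retina was 4.29 times the highest control. The log2 fold change was 2.69 (standard error 0.24, edgeR adjusted p = 1.64e-05), a fold of 6.47.

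C1qb had 34.3, 72.2, 58.8 and 48.9 CPM in Mfp2-/- replicates 1 to 4, against 12.7, 9.05, 5.81 and 8.36 CPM in control replicates 1 to 4. It was the chain with the most counts in both groups, and every Mfp2-/- library was above every control library. For C1qb the log2 fold change was 2.57 (standard error 0.28, edgeR adjusted p = 7.59e-05), close to that of C1qa. C1qc had 37.9, 47.8, 40.7 and 23.2 CPM in Mfp2-/- replicates 1 to 4, against 5.82, 4.07, 1.94 and 5.57 CPM in control replicates 1 to 4. Its groups were also separate, with Mfp2-/- replicate 4 the lowest of the mutants and control replicate 3 the lowest of the controls. For C1qc the log2 fold change was 3.09 (standard error 0.33, edgeR adjusted p = 5.88e-05). Without Mfp2-/- replicates 2 and 3 the log2 fold changes were 2.44 for C1qa, 2.21 for C1qb and 2.81 for C1qc, each still called.

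C1qb and C1qc were each compared with C1qa, and no difference in change was detected; C1qc was not tested against C1qb. The per-mouse difference in log2 CPM between C1qb and C1qa averaged 0.56 ± 0.15 in Mfp2-/- and 0.63 ± 0.46 in control retinas (SD, n = 4 each; exact permutation test, two-sided, p = 0.857, also 0.857 after adjustment over the 13 pairs compared). That between C1qc and C1qa averaged 0.06 ± 0.41 in Mfp2-/- and -0.34 ± 0.74 in control retinas (exact permutation test, two-sided, p = 0.371, adjusted p = 0.439). Neither difference was larger than the spread between mice, which does not show that the chains changed equally. C1qb made up 34.8% to 46.7% of the C1q counts in Mfp2-/- libraries and 42.9% to 51.5% in control libraries, so the ranges of its share overlapped.

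Promoter sequences of RefSeq (GRCm38.p6) were held for C1qb, C1qc, C1ra, C1s1 and C3, and not for C1qa, C4b, Cfi and Serping1. They are shown here for the adjacent C1qb and C1qc, each of which was called higher. GAGGAA, the core of sites for PU.1, a transcription factor that defines microglia and macrophages, was searched on both strands of the 250 bases before each start and was found in C1qb and C1qc of the 5 genes and in 23.3% of all 32851 promoters. It stands in capitals in the run for C1qb (chr4:136886201-136886350, minus strand), 30 bases before the RefSeq start. It stands as TTCCTC, its reverse complement, in the run for C1qc (chr4:136893066-136893164, minus strand), 193 bases before the RefSeq start, which lies 151 bases from the start of the GENCODE gene. A match is a description of letters, with no measurement of binding.
C1qb: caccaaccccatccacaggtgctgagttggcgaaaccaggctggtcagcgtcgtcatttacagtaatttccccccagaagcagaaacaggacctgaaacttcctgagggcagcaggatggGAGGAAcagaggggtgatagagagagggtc
C1qc: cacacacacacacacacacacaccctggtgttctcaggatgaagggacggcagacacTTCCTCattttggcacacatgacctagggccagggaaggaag

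C1ra and C1s1 encode the proteases C1r and C1s, which C1q carries. They are neighbours on chromosome 6 of GRCm38, C1ra from 124512405 to 124523443 on the plus strand and C1s1 from 124530345 to 124542359 on the minus strand. Both were near the limit of detection and neither passed the filter. C1ra had 9, 13, 13 and 6 counts in Mfp2-/- replicates 1 to 4, against 1, 1, 2 and 3 counts in control replicates 1 to 4. The groups did not overlap in CPM. The 41 counts in Mfp2-/- retinas against 7 in controls are a ratio of 6.10 once scaled by the TMM library sizes, and the 95% exact binomial interval for counting error was 2.71 to 16.1. With no filter on low counts C1ra was called by edgeR, with a log2 fold change of 2.56 and an adjusted p of 0.00626.

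C1s1 had 4, 5, 0 and 2 counts in Mfp2-/- replicates 1 to 4, against 1, 0, 0 and 1 counts in control replicates 1 to 4. Mfp2-/- replicate 3 was at 0, so the groups overlapped. The 11 counts against 2 gave a ratio of 5.73 with an exact interval of 1.25 to 53.2, and with no filter the log2 fold change of 2.31 was not called (edgeR adjusted p = 0.194). A difference in C1s1 between the groups was not detectable at this depth. Part of the 3′ end of both genes is shared with a near-identical copy: 19.07% of the 50-base stretches in the last 500 bases of C1ra also occur in C1rb, and 17.96% of those of C1s1 in C1s2, both of which were at 0 counts in all libraries. C1s1 also shares exon bases with Gm16567 on the other strand.

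C3 encodes the component on which the pathways of complement converge. It lies on chromosome 17 of GRCm38 from 57203970 to 57228136, minus strand. It had 27.2, 36.6, 15.1 and 29.4 CPM in Mfp2-/- replicates 1 to 4, against 2.91, 0.452, 0.968 and 1.05 CPM in control replicates 1 to 4. These are 274 counts against 15, of which control replicate 1 alone held 8. The lowest Mfp2-/- retina, replicate 3, was 5.20 times the highest control. The log2 fold change was 4.25 (standard error 0.43, edgeR adjusted p = 4.87e-05), a fold of 19.0. Without control replicate 1 it was 4.90, and without Mfp2-/- replicates 2 and 3 it was 4.32.

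The C3 promoter held the C/EBP-type motif TTGCNNAA as TTGCGAAA, 45 bases before the start, in the run at chr17:57228137-57228286, minus strand, where it stands in capitals. This motif was added after the values were seen, because Cebpd, which encodes the acute-phase transcription factor C/EBPδ, had the profile most like that of C3. The motif occurred in C1s1 and C3 of the 5 promoters and in 9.56% of all promoters. The STAT-type motif TTCNNNGAA and the IRF-type motif GAAANNGAA were in 7.02% and 7.13% of all promoters and in 0 of the 5, and the kappaB-type motif GGNNNTTCC was in 15.7% of all and in that of C1s1. All were searched on both strands, and a match says nothing of binding.
C3: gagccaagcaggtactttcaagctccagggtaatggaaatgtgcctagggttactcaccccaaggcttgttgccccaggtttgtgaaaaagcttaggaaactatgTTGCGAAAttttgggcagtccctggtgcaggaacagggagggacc

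C4b encodes the C4 that C1s cleaves. It lies on chromosome 17 of GRCm38 from 34728380 to 34743882, minus strand, in the same region as C4a, C2 and Cfb. C4b had 60, 64, 70 and 89 counts in Mfp2-/- replicates 1 to 4, against 0, 1, 1 and 1 counts in control replicates 1 to 4. In CPM these are 21.2, 32.5, 23.5 and 32.7 in Mfp2-/- replicates 1 to 4, against 0, 0.452, 0.323 and 0.348 in control replicates 1 to 4. The gene was thus at or next to 0 in all control retinas and at a level like that of C3 in all Mfp2-/- retinas. The 283 counts against 3 gave a ratio of 98.3 with a 95% exact interval of 33.3 to 480, counting error only, and edgeR's log2 fold change was 6.42 (standard error 0.40, adjusted p = 1.10e-06). Without Mfp2-/- replicates 2 and 3 it was 6.39.

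C4a, the near-identical copy of C4b, had 16, 12, 7 and 3 counts in Mfp2-/- replicates 1 to 4, against 0, 3, 3 and 0 counts in control replicates 1 to 4, and did not pass the filter. In the last 500 bases, 38.14% of the 50-base stretches of C4b occur in C4a as well, so reads of the 2 genes cannot all be told apart. Summed over both copies, 321 counts in Mfp2-/- retinas against 9 in controls gave a ratio of 37.2 with a 95% exact interval of 19.3 to 82.0. Reads without a unique alignment were counted apart from genes, so this sum may leave out reads that fit both copies. C4b held 88.2% of the summed counts in Mfp2-/- retinas (95% Clopper-Pearson interval 84.1% to 91.5%, counting error only). That interval leaves out the spread between mice. C4b held 60 of 76, 64 of 76, 70 of 77 and 89 of 92 counts in Mfp2-/- replicates 1 to 4.

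Serping1, which encodes C1 inhibitor, was the complement gene of the 9 with the highest level in Mfp2-/- retinas. It lies on chromosome 2 of GRCm38 from 84765387 to 84775444, minus strand. It had 112, 143, 103 and 104 CPM in Mfp2-/- replicates 1 to 4, against 10.9, 5.43, 6.45 and 10.1 CPM in control replicates 1 to 4. With 1189 counts in Mfp2-/- and 91 in control retinas it was also the most precisely measured, and the lowest Mfp2-/- retina was 9.42 times the highest control. The log2 fold change was 3.79 (standard error 0.22, edgeR adjusted p = 6.96e-07), a fold of 13.9. It was 3.69 without Mfp2-/- replicates 2 and 3.

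Cfi, which encodes the protease factor I, lies on chromosome 3 of GRCm38 from 129835884 to 129875332, plus strand. It had 17.3, 17.8, 14.8 and 9.93 CPM in Mfp2-/- replicates 1 to 4, against 1.09, 0.905, 0.323 and 0 CPM in control replicates 1 to 4. These are 155 counts against 6, with Mfp2-/- replicate 4 the lowest of the mutants and still 9.09 times the highest control. For Cfi the log2 fold change was 4.64 (standard error 0.49, edgeR adjusted p = 5.86e-05), and 4.52 without Mfp2-/- replicates 2 and 3.

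Among the Mfp2-/- retinas, replicate 2 had the highest CPM for 8 of the 9 genes and replicate 4 for C4b, and this order was the same when libraries were scaled to total counts. Replicate 2 was also the library with the fewest counts in genes and the lowest share of reads outside genes, whose part in its levels was not tested. The highest Mfp2-/- retina was 1.39 times the lowest for Serping1, 1.54 times for C4b, 1.78 times for C1qa, 1.79 times for Cfi 2.06 to 2.42 times for C1qc, C1qb and C3, and 2.99 times for C1ra. Among the controls, the Mfp2+/- retina lay within the range of the Mfp2+/+ retinas for 6 of the 9 genes. It was below them for C3 and Serping1, and above them for C4b, where it had 1 count.

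The makeup of the complement transcripts differed between the groups. Summed over the 9 genes, the level was 281 to 407 CPM in Mfp2-/- libraries and 22.3 to 40.4 CPM in control libraries. The C1q chains made up 35.1% to 45.6% of this sum in Mfp2-/- libraries, against 58.0% to 71.2% in control libraries. C3 and C4b together made up 13.1% to 21.9% in Mfp2-/- libraries, against 3.39% to 7.21% in control libraries. The inhibitors Serping1 and Cfi made up 39.6% to 46.0% in Mfp2-/- libraries, against 23.7% to 33.0% in control libraries. None of these shares overlapped between the groups. Serping1 alone was at 0.763 to 1.14 times the summed C1q level in Mfp2-/- libraries and at 0.286 to 0.569 times in control libraries. These shares are descriptions over libraries and were not tested as sums.

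**Figure D2:**
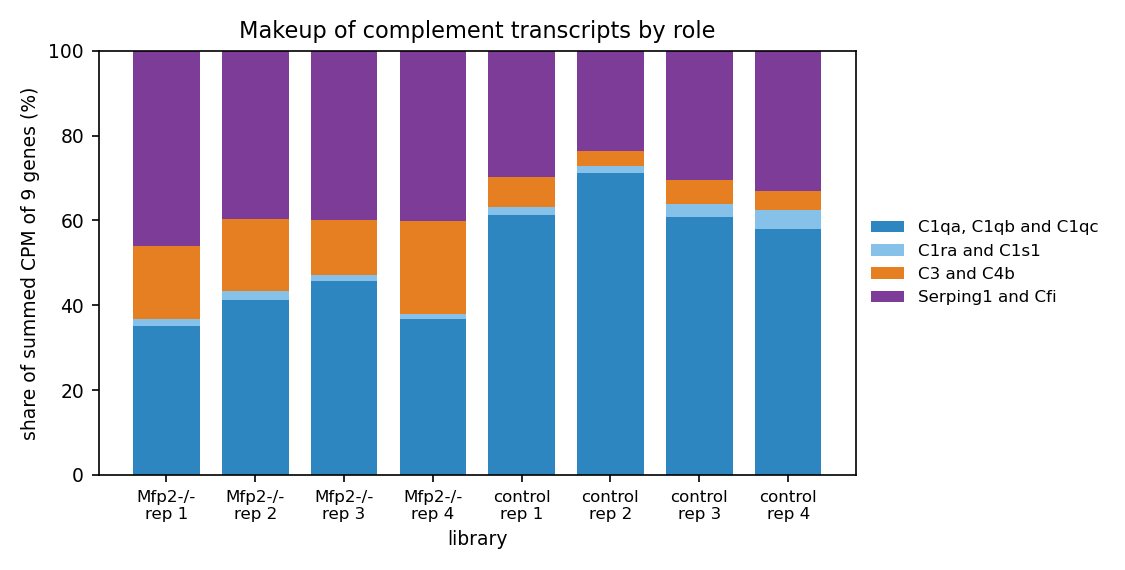
Share of the summed CPM of the 9 complement genes held by each role (stacked bars, vertical axis in percent), for Mfp2-/- replicates 1 to 4 (left) and control replicates 1 to 4 (right). C1q holds 35.1% to 45.6% in Mfp2-/- bars, where C3 and C4b and the inhibitors hold more, and 58.0% to 71.2% in control bars.

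Whether single genes changed by different amounts was tested on per-mouse differences in log2 CPM over 13 pairs, 10 of them among the 9 genes and 3 of C1qa with microglia markers. With 4 mice against 4 the smallest p is 0.0286, which 6 pairs reached, and none of the 13 pairs passed after Benjamini-Hochberg adjustment. With this smallest p, a pair could not pass on its own, whatever the size of its difference. The adjusted result therefore does not show equal change. Serping1 minus C1qa averaged 1.70 ± 0.24 in Mfp2-/- and 0.51 ± 0.61 in control retinas (SD, n = 4 each; exact permutation test, two-sided, p = 0.0286, adjusted p = 0.0619). C4b minus C1qa averaged -0.35 ± 0.26 in Mfp2-/- and -2.59 ± 0.48 in control retinas, with the same exact p and adjusted p. Cfi minus C1qa averaged -1.21 ± 0.45 in Mfp2-/- and -2.29 ± 0.38 in control retinas, again with these p-values. The difference between the groups was 1.20 for Serping1, 2.24 for C4b and 1.08 for Cfi relative to C1qa on the log2 scale. The values for C4b and Cfi, whose control counts are near 0, moved with the prior count. With a prior count of 5, Cfi minus C1qa differed by 0.44 and did not reach the smallest p (exact permutation test, two-sided, p = 0.0857, adjusted p = 0.124), and C4b minus C1qa differed by 1.41 with that prior count and by 3.34 with one of 0.5.

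C3 minus C1qa was higher in Mfp2-/- retinas by 1.25 on the log2 scale without reaching that limit (exact permutation test, two-sided, p = 0.0571, adjusted p = 0.0825). C4b minus C3 differed by 0.98 between the groups (exact permutation test, two-sided, p = 0.0857, adjusted p = 0.111), so a larger change of C4b than of C3 was not shown. C1ra and C1s1 differed from C1qa by -0.78 and -1.66 at p = 0.0286 in the same exact test (adjusted p = 0.0619), but these values rest on few counts and on the prior count of 2. With a prior count of 0.5 they were -0.30 and -1.11, and the ratios of summed counts were 6.10 for C1ra and 5.73 for C1s1 beside 6.39 for C1qa. C1ra minus C1s1 differed by 0.88 between the groups (exact permutation test, two-sided, p = 0.0571, adjusted p = 0.0825).

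C1q is a product of microglia, and microglia markers moved with it. Of 15 markers listed, 9 passed the filter and all 9 were called higher in Mfp2-/- retinas, beside 13.8% of all genes tested. Aif1, Trem2 and Tyrobp had under 10 counts in every control library and passed through the Mfp2-/- libraries alone, and the other 6 tested markers were also called higher. The summed level of the 15 was 378 to 451 CPM in Mfp2-/- libraries and 71.7 to 95.8 CPM in control libraries. The summed C1q level was 0.254 to 0.370 times this marker sum in Mfp2-/- libraries and 0.164 to 0.345 times in control libraries, so these ranges overlapped. Against single markers, C1qa minus Aif1 differed by 0.15 between the groups (exact permutation test, two-sided, p = 0.714, adjusted p = 0.774). C1qa minus Cx3cr1 differed by 0.58 (exact p = 0.0571, adjusted p = 0.0825) and C1qa minus Csf1r by 0.59 (exact p = 0.0286, adjusted p = 0.0619), both larger in Mfp2-/- retinas. The log2 fold changes of these markers were 2.75 for Aif1, 2.00 for Cx3cr1 and 2.01 for Csf1r, and that of Tmem119 was 1.52, all called. The markers that did not pass the filter all had more counts in Mfp2-/- than in control retinas. Sall1 (35 against 8 counts) was separate between the groups. P2ry12 (42 against 16), P2ry13 (57 against 24), Fcrls (35 against 6), Siglech (32 against 14) and Gpr34 (20 against 11) overlapped in CPM. The part of microglia in the levels of the complement genes was not tested.

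**Figure D3:**
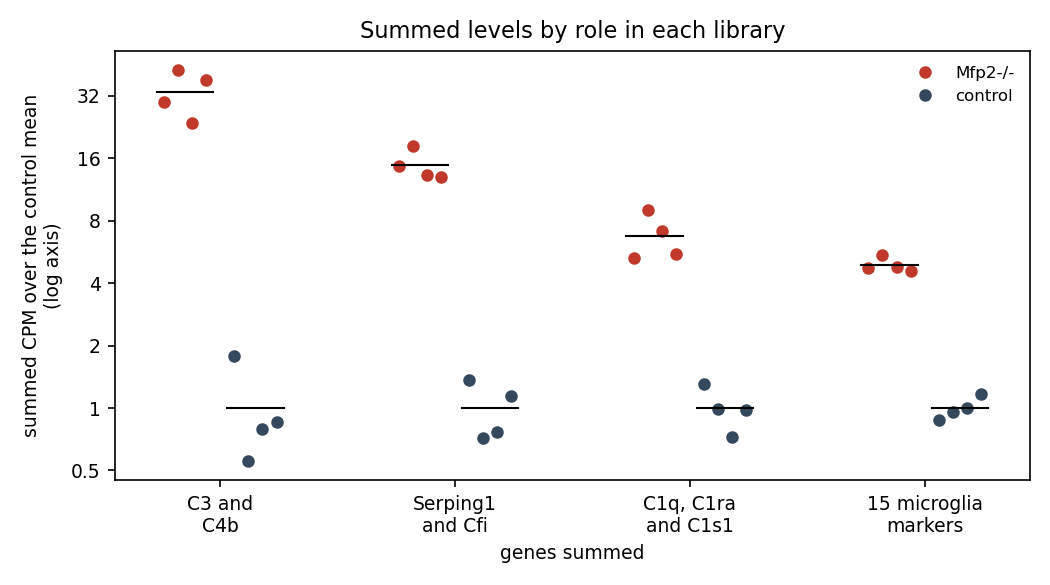
Summed CPM of each role and of 15 microglia markers in each library, divided by the control mean (vertical axis, log scale), for Mfp2-/- (red, left) and control (dark blue, right), 4 libraries each, with lines at the group means. The highest Mfp2-/- library is at 42.5 for C3 and C4b, 18.3 for Serping1 and Cfi, 9.01 for the initiators and 5.48 for the microglia markers, and in each of these sums all Mfp2-/- libraries lie above all controls.

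Marker transcripts of other cell types of the tissue differed as well, which does not count the cells. Of 11 genes of reactive gliosis, the response of Müller cells and astrocytes to injury, 10 passed the filter. All 10 were called higher, beside 13.8% of all genes tested. Timp1 passed through the Mfp2-/- libraries alone, and Lcn2, Osmr and Socs3 also needed Mfp2-/- libraries to pass. The summed level of the 11 genes was 1418 to 1925 CPM in Mfp2-/- libraries and 296 to 367 CPM in control libraries. Gfap, the glial filament gene, was higher by 3.24 on the log2 scale. Of 10 Müller cell markers 7 were called higher and 0 lower, beside 13.8% and 13.2% of all genes tested. All 10 rod markers were called lower, beside 13.2% of all genes tested, and their summed level was 1386 to 2018 CPM in Mfp2-/- libraries and 42667 to 52289 CPM in control libraries. For cells that could come with the dissection, 0 of 7 tested markers of the retinal pigment epithelium were called by edgeR (3 had an unadjusted p under 0.05, and limma-voom and DESeq2 called 1 each), with a summed level of 301 to 529 CPM in Mfp2-/- and 198 to 405 CPM in control libraries. The log2 fold changes of these 7 had a median of 0.43 and ran from -0.82 for Rgr to 1.12 for Mlana, with Rpe65 at -0.12. Of 4 tested erythrocyte markers 0 were called by edgeR, limma-voom or DESeq2, although all 4 had an unadjusted p under 0.05 in edgeR, Hbb-bs having a log2 fold change of -0.88. Of 6 tested endothelial markers 1 was called, and of 6 tested pericyte and fibroblast markers 1, beside 27.0% of all genes tested called in either direction. The liver gene Alb had 29 counts in Mfp2-/- and 41 in control retinas, of which replicate 1 of each group held 20 and 38, leaving 9 and 3 in the others. Trf, the transferrin gene and the one gene of the liver list that passed the filter, was called higher, with a log2 fold change of 1.74. Of the monocyte and granulocyte list, Ly6c2 was at 0 counts in all libraries and Ccr2 had 8 counts in Mfp2-/- and 1 in control retinas. Cd44, which other cells also express, was the one gene of that list that passed the filter and was called higher, by 3.04 on the log2 scale. The summed level of the list was 93.4 to 111 CPM in Mfp2-/- and 8.39 to 16.0 CPM in control libraries. Nearly all of this sum was Cd44, at 89.9 to 106 CPM in Mfp2-/- and 7.10 to 15.7 CPM in control libraries. The part of these cells in the complement levels was not tested.

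The genes with profiles most like those of the complement genes were sought among 11694 other genes with at least 5 CPM on average, by the root mean square distance of log2 CPM, relative to the control mean, over the 8 libraries. For C1qa they were Tagln2 (distance 0.228), which encodes an actin-binding protein, Chil1 (0.241), a glial chitinase-like gene, and Ifitm3 (0.276), an interferon-induced gene. For C4b they were Gm1698 (0.391), Serpina3n (0.487), a glial acute-phase serine protease inhibitor, and A2m (0.650), which encodes the protease inhibitor α2-macroglobulin. Cebpd was the nearest gene to C3 (0.430), to Serping1 (0.345) and to Cfi (0.395), and A2m was among the nearest 3 of each. The others were Gfap (0.541) for C3, the MHC class I gene H2-K1 (0.419) for Serping1, and the stress-induced Gdf15 (0.485) for Cfi. The nearest genes of C1qa thus differed from those of the other 4, and this likeness is a description of 8 libraries that share 1 contrast. The distance includes the size of the change, a log2 fold change of 2.69 for C1qa and 3.79 to 6.42 for the other 4. The different nearest genes are therefore no result separate from the fold changes.

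In the rest of the complement system, changes were mixed in direction. Of 47 other complement genes listed, 46 were in the tables, 16 had no count in any library, and 11 passed the filter, of which 3 were called higher, 1 lower and 7 not called. Of all genes tested, 27.0% were called in either direction. Of the 4 genes called, C3ar1 passed the filter through the Mfp2-/- libraries alone, which leaves 2 higher and 1 lower among the other 10. No gene of the terminal pathway (7 listed) passed the filter, and Hc, which encodes C5, C7 and C9 had no count in any library. Of the alternative pathway, Cfb and Cfd, which encode factors B and D, had no count. For Cfd a total of 0 counts over a group allows a level of up to 0.286 CPM in Mfp2-/- and 0.274 CPM in control retinas (3 counts), provided that its reads could be counted. Whether Cfd shares exon bases with another gene was not examined. Cfb and C2 share exon bases with the gene model Gm20547 on the same strand, which also had no count, and reads that fall in both may not have been counted, so that the level of Cfb is not bounded by its 0 counts. Cfp, which encodes properdin, the stabiliser of the alternative convertase, had a log2 fold change of -0.41 that was not called (edgeR adjusted p = 0.432). C2, the other substrate of C1s, had 12 counts in Mfp2-/- and 6 in control retinas and was not tested.

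Among the receptors for complement fragments, C3ar1, the receptor for C3a, had 26, 15, 29 and 22 counts in Mfp2-/- replicates 1 to 4, against 0, 0, 1 and 4 counts in control replicates 1 to 4. Its groups were separate, with a log2 fold change of 4.12 (standard error 0.57, edgeR adjusted p = 0.00045), or 5.69 without control replicate 4. It had under 10 counts in every control library and passed the filter through the Mfp2-/- libraries alone, so that its call is a description. C5ar1, the receptor for C5a, had 2, 3, 8 and 5 counts in Mfp2-/- replicates 1 to 4 and 0 in every control library. The ratio of C5ar1 was 6.25 when 3 counts over the control group were taken as the floor. This leaves out counting error in the Mfp2-/- retinas, and the 95% exact interval of the ratio starts at 4.58. Hc, the gene of its ligand, had no count. Itgam and Itgb2, which encode the chains of complement receptor 3, had 57 and 44 counts in Mfp2-/- retinas, against 12 and 5 in control retinas. Their groups did not overlap, but neither passed the filter.

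Among the other regulators, Clu, which encodes the terminal complex inhibitor clusterin, had 1013, 1335, 1115 and 961 CPM in Mfp2-/- replicates 1 to 4, against 586, 517, 533 and 425 CPM in control replicates 1 to 4. The groups were separate, with a log2 fold change of 1.10 (standard error 0.15, edgeR adjusted p = 0.000432). Vtn, which encodes vitronectin, another inhibitor of the terminal complex and in the mouse retina a gene of photoreceptors, had 44.6, 53.4, 36.6 and 37.5 CPM in Mfp2-/- replicates 1 to 4, against 433, 553, 633 and 500 CPM in control replicates 1 to 4. It was the 1 complement gene called lower, with a log2 fold change of -3.63 (standard error 0.18, edgeR adjusted p = 2.91e-07), beside a median of -4.61 for the rod markers. Csmd2, which encodes a membrane protein with complement control domains, was higher by 0.75 on the log2 scale (standard error 0.20, edgeR adjusted p = 0.018). Without control replicate 2 it was 0.72 and no longer called (adjusted p = 0.0547).

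**Figure D4:**
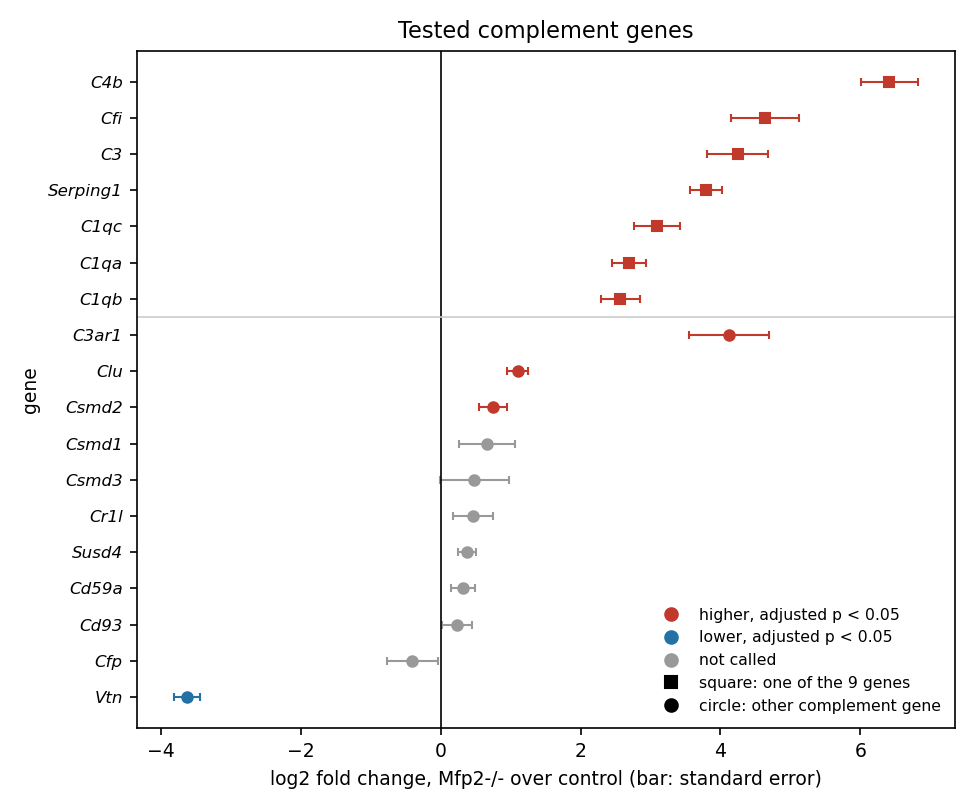
Log2 fold change of Mfp2-/- over control (horizontal axis, bars are standard errors) of the 7 tested genes of the 9 (squares, upper block) and of the 11 other complement genes tested (circles, lower block), red where called higher, blue where called lower and grey where not called. The squares lie between 2.57 and 6.42, C3ar1 at 4.12 is the one circle among them, and Vtn at -3.63 is the one gene called lower.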

How the data were processed

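The authors sequenced single-end reads of 50 bases, aligned them to the mouse genome mm10 and deposited raw read counts per gene symbol for each library, listing FastQC 0.11.7, HISAT2, SAMtools 1.5 and HTSeq. Not given in the sources used here are the HISAT2 version, the gene annotation and whether counting used strand. A table of the whole series held the same counts (0 different values over 21129 shared symbols), and the 8 per-library tables were read. Rows that name no gene were left out of library sizes; reads outside genes are given as a share of all reads.

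R 4.3.3 was used with edgeR 4.0.16 (filterByExpr, TMM, quasi-likelihood test), which was tested on simulated data. The alternatives limma 3.58.1 (voom) and DESeq2 1.42.0 were not tested in that way. Log2 CPM used a prior count of 2. Reads were not collapsed by molecule, so intervals and floors cover counting error only. Groups came from the labels. Each mouse gave 1 library, so p-values measure the spread between mice. Replicate numbers did not pair the mice (correlations of deviations of same-numbered libraries -0.16 to 0.25). The genes and lists were chosen with earlier results of these data known. Named were the 9 genes, C4a, Cfb and called genes of the complement lists, marker examples, and for 5 of the 9 genes the 3 genes nearest in profile. Other complement genes named and the list counts were chosen after their values were seen. So were Ly6c2, Ccr2, Cd44, Trf, Rgr, Mlana, Trem2, Tyrobp, Timp1, Lcn2, Osmr, Socs3, Sall1, P2ry13, Fcrls, Siglech and Gpr34. Coordinates are from GENCODE M21 (GRCm38) and promoters from RefSeq GRCm38.p6. Alternatives were other scaling factors, filters, tests and prior counts, a replicate block, the series-wide table and leaving out libraries. Reads were not analysed here, and 1 gene of the complement lists is not reported here.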

Additional observations from a re-analysis of the deposited data

Results flagged for a closer look

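Over 40 groups of 4 libraries (the 9 complement genes and the 11 others tested, in each group), 4 held a library far from the other 3 by Dixon's criterion, where chance marks about 1 in 20 groups. C1qa was at 3.83 CPM in control replicate 4, below the other controls, which were between 5.81 and 6.19 CPM. Of the other complement genes, Cfp was at 18.2 CPM in control replicate 1, Csmd2 at 32.0 CPM in control replicate 4, and Cd93, a receptor once described as one for C1q, at 14.2 CPM in control replicate 3, each above the other 3 controls. All 4 were control libraries, and their cause was not tested.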

How the results depend on the processing

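The 7 genes called among the 9 were called with each other scaling (RLE, upper-quartile, total counts), with DESeq2, limma-voom, the series-wide table and without any single library (7 in each case) or without Mfp2-/- replicates 2 and 3. Without a filter 8 were called, C1ra being added. With at least 10 counts required in every library only 3 (C1qa, C1qb and Serping1) could be tested and 3 were called. Over these alternatives the log2 fold changes ran from 2.44 to 2.84 for C1qa, 2.21 to 2.79 for C1qb, 2.81 to 3.29 for C1qc, 4.01 to 4.90 for C3, 6.00 to 6.65 for C4b, 4.24 to 5.16 for Cfi and 3.65 to 3.95 for Serping1. Other complement genes called numbered 4 of 11 tested with the filter and all libraries, where 27.0% of all genes tested were called. They numbered 8 of 30 without a filter (15.8% of all genes called) and 7 of 12 without Mfp2-/- replicates 2 and 3 (26%). Without single libraries 4 to 6 were called, beside 19.3% to 27.7% of all genes. With the replicate number as a block, 2845 genes were called in all, beside 3377, and the replicate block changed no call among the 9 genes or the other complement genes named. Leaving out single libraries gave 2474 to 3524 genes called in all. Total counts and upper-quartile factors moved the median of all genes by 0.12 on the log2 scale and the share of higher calls to 65.2% and 64.2%, against 51.2% with TMM.

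In the pairs, C1qa minus Aif1 turned to -0.16 with a prior count of 0.5 and ran from -0.08 to 0.45 without single libraries. C1qb minus C1qa turned to 0.0014 with a prior count of 5 and ran from -0.27 to 0.06. The cause was not tested, and no test was run on the pairs without single libraries. With prior counts of 5 and 0.5, C4b minus C1qa was 1.41 and 3.34 and Cfi minus C1qa was 0.44 and 1.96. No pair passed after adjustment with any prior count, which with 4 mice against 4 no pair could do on its own. Depth limits C1ra, C1s1, C4a, C2 and the receptors other than C3ar1 and Cd93, which hold under 60 counts per group, and the ratios of C4b and Cfi, whose control groups hold 3 and 6 counts.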
